A study of Rattus norvegicus and Mus musculus with 18 samples.

Results

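Gata2, Gata3, Emx2, Lhx1, Pax8, Sox9 and Pou3f3 are 7 transcription factors of the nephric duct and the ureteric bud, the epithelial tube that grows from the duct into the kidney mesenchyme and branches to form the collecting system. Their levels were followed across ureteric bud tip, bud stalk and metanephric mesenchyme of the mouse, and across whole ureteric bud and metanephric mesenchyme of the rat. The measurements are the probe sets annotated to only 1 of these 7 symbols, which are 20 of the 71239 probe sets of the series and 7 of its 19342 named genes. Of these, 13 lay on the mouse array and covered all 7 genes. The rat designs held 4 (design A, the first), 2 (design B) and 1 (design C), which covered 6 genes, and Sox9 had none there. A further mouse probe set that carried a member's symbol together with another gene's was left out.

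The mouse samples were dissected at E12.5 (embryonic age in days) with no genotype or treatment stated, and the rat samples at E13.5. The labels used here name no strain. Kidneys were loosened for 10 min with DNase and trypsin, and about 1000 tips, 350 stalks and 300 mesenchymes of the mouse, and about 1200 buds and 240 mesenchymes of the rat, were pooled. From each pooled RNA, 1 ug was labelled in 2 separate reactions, so that every tissue had 2 arrays per design. Both arrays of a tissue carry the same RNA. The tests below therefore measure differences beyond the spread of labelling and hybridisation, and not beyond the spread between animals. In pooled tissue, fewer cells of a type and less RNA per cell cannot be told apart.

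As background, Pax8 acts with Pax2 at the top of duct formation, and the LIM homeodomain protein Lhx1 and the zinc finger protein Gata3 act with them as the duct forms and extends. Gata3 is known for maintaining expression of the receptor tyrosine kinase Ret in the duct. Gata2 is its close relative, known for a part in the placement of the duct and ureter. The homeodomain protein Emx2 is needed for the bud to branch once it has entered the mesenchyme. The HMG-box protein Sox9 acts with Sox8 in branching, and the POU-domain protein Pou3f3, also called Brn1, is best known in the distal nephron. Lhx1, Pax8 and Pou3f3 are also expressed in the early nephron, which forms from the mesenchyme beside the tips.

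The tissue labels were checked against marker lists. In the mouse, the summed level of 15 bud epithelial markers was 37620 to 38190 in tip, 22000 to 22210 in stalk and 1440 to 1523 in mesenchyme. The summed level of 15 stromal and ureteric mesenchyme markers was 2161 to 2408 in tip, 17810 to 18100 in stalk and 15640 to 15710 in mesenchyme, so the stalk pool carried this signal along with the epithelial one. Nephron progenitor markers (11 genes) summed to 912 to 1065 in tip, 2938 to 3009 in stalk and 8232 to 8251 in mesenchyme. The adhesion protein gene Cdh1 averaged 1945 in tip, 1334 in stalk and 15.7 in mesenchyme. In the rat, the bud marker Epcam was higher in bud on design A (log2 difference 4.32) and design C (5.07), and Cdh1 on design B (4.09). The whole bud epithelial list had smaller medians: 1.73 on design A (5 genes tested), 1.75 on design B (6 tested) and 2.61 on design C (2 tested). The progenitor list was lower in rat bud, with a median of -1.64 on design A (3 genes tested) and -2.23 on design B (4 tested). On design C the only measured gene of the progenitor list, Crym, went against its list and was higher in bud (2.69). The second bud labeling of the rat stood apart on all 3 designs: its ratio of 3′ to 5′ Gapdh control signal was 4.26 to 5.28, against 1.25 to 1.47 on the other 9 rat arrays and 0.903 to 1.01 on the 6 mouse arrays. Without it the differences were 4.54 and 5.09 for Epcam on designs A and C, 4.20 for Cdh1 and 2.98 for Crym. The rat differences named below are given with and without it.

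To show the regions just upstream of these genes, promoter sequence was available for 4 of the 7 factors, Gata2, Gata3, Lhx1 and Pax8, from RefSeq on the rat build GRCr8. Gata3 and Lhx1 are printed because both were called higher in mouse tip and stalk than in mesenchyme in the results below, and Gata2 because it was lower in tip than in stalk. Each line gives the 250 bases before the gene's start, 5′ to 3′ on the gene's strand. They lie at chr17:73553298-73553547 (plus strand), chr10:69901077-69901326 (minus strand) and chr4:122216031-122216280 (plus strand).
Gata3: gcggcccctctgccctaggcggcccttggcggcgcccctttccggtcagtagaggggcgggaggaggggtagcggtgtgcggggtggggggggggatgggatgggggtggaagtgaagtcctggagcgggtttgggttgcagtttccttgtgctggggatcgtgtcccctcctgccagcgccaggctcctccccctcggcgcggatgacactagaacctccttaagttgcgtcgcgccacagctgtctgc
Lhx1: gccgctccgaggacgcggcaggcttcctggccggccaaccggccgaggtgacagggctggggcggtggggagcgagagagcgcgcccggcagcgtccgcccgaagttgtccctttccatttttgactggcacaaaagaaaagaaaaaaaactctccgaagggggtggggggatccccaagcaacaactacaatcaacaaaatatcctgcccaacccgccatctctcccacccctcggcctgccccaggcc
Gata2: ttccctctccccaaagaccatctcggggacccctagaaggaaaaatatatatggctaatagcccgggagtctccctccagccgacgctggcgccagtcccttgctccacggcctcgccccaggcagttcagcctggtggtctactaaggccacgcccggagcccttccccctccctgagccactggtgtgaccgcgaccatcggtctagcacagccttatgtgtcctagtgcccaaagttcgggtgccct
Capitals would have marked motif matches, and there were none. The search covered both strands for GATA sites (AGATAA, also TGATAA, also AGATAG and also TGATAG), the homeodomain core TAATTA and SOX sites (ACAAAG or ACAATG). None of the 4 upstream regions, Pax8 included, held a match to any of the 3. Over 33469 promoters of the same length, 27% held a GATA match, 4.86% a homeodomain match and 25.3% a SOX match. The GC content was 68.4% for Gata3, 63.2% for Lhx1, 61.6% for Gata2 and 60.8% for Pax8, against a median of 51.2% over all promoters. No array measurement bears on these sequences directly.

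Levels are quantile-normalised intensities within an array design, and levels of single probe sets are compared between tissues, not with each other. Differences and folds, the 2-fold threshold included, are on the scale log2(intensity + 16), which understates changes of dim probe sets. Such folds are smaller than the ratios of the printed intensities. Each difference was tested with limma's moderated test across all probe sets that passed the filter of their design (the mean of at least 1 tissue at or above the design's median), with Benjamini-Hochberg adjustment over all of them. A difference is called when the adjusted p is below 0.05 and the change is at least 2-fold. Where an array is left out, its tissue keeps 1 array, which is assumed to vary like the other tissues of the fit. In the rat that spread comes from the 2 arrays of the other tissue alone, so for named rat genes only the size of the difference is given. Counts of kept calls in the closing section include such fits. Errors are standard errors (SE) of the fit or standard deviations (SD) of 2 arrays. Where tissues are said not to overlap, this describes the printed values of 2 arrays per tissue and is not a test. The share of all probe sets without overlap is not given.

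**Figure D1:**
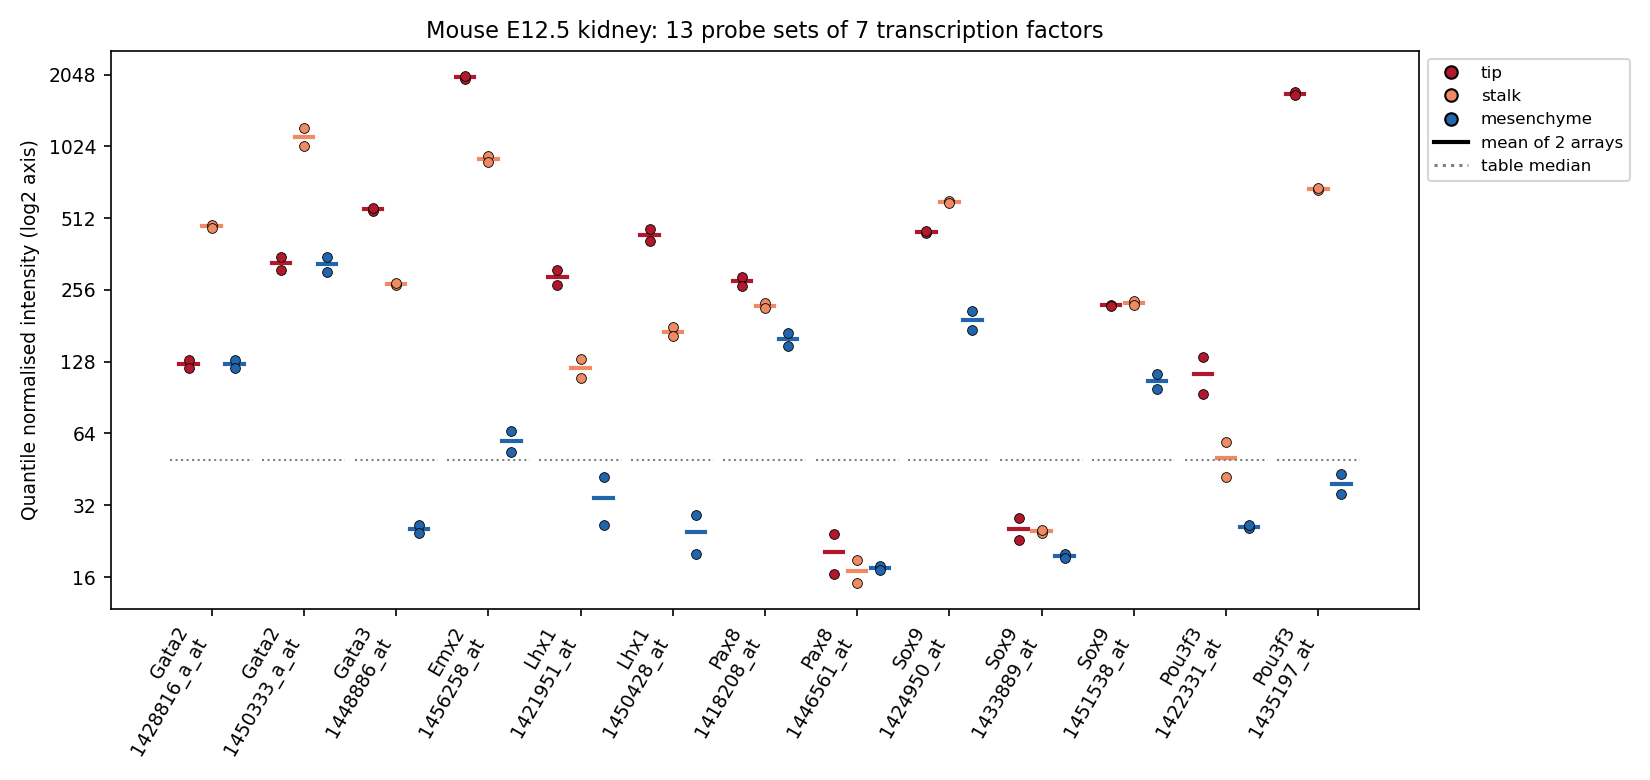
Quantile-normalised intensity (log2 axis) of the 13 mouse probe sets on each array, with tip, stalk and mesenchyme side by side; points are arrays, bars the mean of 2 arrays, and the dotted line the median of the table. Emx2, Gata3, Lhx1 and Pou3f3 descend from tip over stalk to mesenchyme, while both Gata2 probe sets peak in stalk.

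Emx2, Pou3f3, Lhx1 and Gata3 showed 1 order in the mouse: highest in tip, intermediate in stalk and lowest in mesenchyme. Emx2 (1456258_at) read 1965 and 2017 on the tip arrays, 933 and 877 on the stalk arrays, and 65.8 and 53.6 on the mesenchyme arrays. The 3 tissues did not overlap. Tip exceeded stalk by 1.12 ± 0.08 (log2, SE; adjusted p = 1.8e-05) and mesenchyme by 4.73 ± 0.08 (adjusted p = 1.83e-09), which is 26.6-fold. Stalk exceeded mesenchyme by 3.61 (adjusted p = 3.35e-08).

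Pou3f3 was measured by 2 probe sets. The first, 1435197_at, read 1725 and 1677 in tip, 672 and 685 in stalk, and 43.1 and 35.5 in mesenchyme. Its tip level was 31.1-fold that of mesenchyme (log2 difference 4.96 ± 0.08, adjusted p = 1.3e-09) and 2.47-fold that of stalk (1.31, adjusted p = 5.66e-06), and stalk was above mesenchyme by 3.65 (adjusted p = 2.57e-08). The other, 1422331_at, read 134 and 94.1 in tip, 58.9 and 42.0 in stalk, and 25.6 and 26.5 in mesenchyme. The tissues stood in the same order without overlap, and its difference of tip from mesenchyme was called (1.61 ± 0.19, adjusted p = 0.000184). Tip against stalk fell just short of 2-fold (0.96 ± 0.19, adjusted p = 0.00506) and was 1.18 without tip replicate 2 and 1.15 without stalk replicate 1, both called. Stalk against mesenchyme was 0.65 (adjusted p = 0.0557).

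Lhx1 was also read by 2 probe sets. In tip 1450428_at gave 463 and 410, in stalk 178 and 164, and in mesenchyme 29.1 and 20.1. The second, 1421951_at, gave 309 and 269, 131 and 109, and 26.5 and 42.0. Both ranked tip over stalk over mesenchyme on every array. The differences of tip from stalk were 1.27 ± 0.14 (adjusted p = 0.000227) and 1.17 ± 0.17 (adjusted p = 0.0012). Those of tip from mesenchyme were 3.48 (adjusted p = 2.23e-07) and 2.62 (adjusted p = 4.95e-06), and those of stalk from mesenchyme 2.21 (adjusted p = 1.19e-05) and 1.45 (adjusted p = 0.000603). All 6 were called. With a pseudocount of 64 in place of 16, 1421951_at lost 2 of its calls, at 0.94 for tip against stalk and 0.91 for stalk against mesenchyme.

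Gata3 had a single mouse probe set, 1448886_at. It read 548 and 567 in tip, 267 and 274 in stalk, and 26.3 and 24.5 in mesenchyme. No tissue overlapped another. Tip was 13.8-fold above mesenchyme (log2 difference 3.79 ± 0.10, adjusted p = 1.43e-08) and stalk 6.92-fold above it (2.79, adjusted p = 3.17e-07). Tip against stalk came to 0.9997 ± 0.0976 (adjusted p = 0.000106), which missed the 2-fold requirement in the fourth decimal and was not called. It was called without tip replicate 1 (1.02) or without stalk replicate 2 (1.02), and was 0.93 on the values as deposited.

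The bud epithelial marker list moved in the same direction as these 4 factors. Of its 15 genes, 4 were called higher in tip than in stalk and 0 lower, against 0.953% and 3.64% of all tested probe sets. Its median was 0.81, against 0.06 over all, while the differences of the 4 factors ran from 0.96 to 1.31. The share of epithelium in each pool and its part in the tip and stalk levels of Emx2, Pou3f3, Lhx1 and Gata3 was not tested.

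Gata2 had another pattern from that of Gata3: highest in stalk, with overlapping levels in tip and mesenchyme. Its probe set 1450333_a_at read 310 and 351 in tip, 1023 and 1218 in stalk, and 304 and 350 in mesenchyme. The second probe set, 1428816_a_at, read 130 and 121 in tip, 480 and 464 in stalk, and 130 and 121 in mesenchyme. On both, every stalk array lay above every other array, and the tip and mesenchyme arrays overlapped. Stalk exceeded tip by 3.27-fold and 3.45-fold (tip minus stalk -1.71 ± 0.10, adjusted p = 5.24e-06, and -1.79 ± 0.10, adjusted p = 2.67e-06). Stalk exceeded mesenchyme by 1.73 (adjusted p = 8e-06) and 1.79 (adjusted p = 4.13e-06). For tip against mesenchyme the 95% intervals ran from -0.22 to 0.25 and from -0.22 to 0.22 on the log2 scale.

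The stromal and ureteric mesenchyme list moved with Gata2 between tip and stalk: 13 of its 15 genes were lower in tip and none higher. Its median was -2.90, against 0.06 over all tested probe sets, of which 3.64% were called lower in tip and 0.953% higher. Between stalk and mesenchyme that list was called higher in stalk for 3 genes and lower for 1, against 2.35% and 0.426% of all tested probe sets. Its median was 0.14, while Gata2 was over 3-fold higher in stalk, the direction of those 3 genes. Endothelial markers summed to 2604 to 2705 in stalk and 3980 to 4007 in mesenchyme, lower where Gata2 was higher. Between tip and stalk they moved with Gata2, at 1444 to 1537 in tip, where 5 of 15 were called lower than in stalk and 0 higher. The summed levels of macrophage and mast cell markers (1123 to 1170 against 1532 to 1665), of sympathetic and other neuronal markers (833 to 872 against 1240 to 1338) and of erythroid markers (16730 to 16770 against 22400 to 22600) were likewise lower in stalk than in mesenchyme. In tip these 3 lists summed to 830 to 918, 402 to 491 and 8930 to 9524, below stalk, as Gata2 was. The part of other cell types in the Gata2 level of stalk was not tested.

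Sox9 was higher in both bud tissues than in mesenchyme. Its probe set 1424950_at read 445 and 452 in tip, 604 and 594 in stalk, and 208 and 173 in mesenchyme, with no overlap. Tip exceeded mesenchyme by 1.17 ± 0.09 (adjusted p = 1.03e-05) and stalk did so by 1.58 ± 0.09 (adjusted p = 5.15e-06). Stalk was above tip by less than 2-fold (tip minus stalk -0.40 ± 0.09, adjusted p = 0.00846). The second probe set, 1451538_at, read 221 and 220 in tip, 230 and 221 in stalk, and 114 and 98.1 in mesenchyme. It gave 0.96 for tip and 0.99 for stalk against mesenchyme, both close below 2-fold, and both were called without mesenchyme replicate 1 (1.05 and 1.08). The stalk difference was also called without stalk replicate 2 (1.02). Between tip and stalk it gave -0.03, with an interval from -0.27 to 0.21, so that the 2 Sox9 probe sets differ on whether stalk lies above tip. The third, 1433889_at, did not reach the filter, at 28.2 and 22.9 in tip, 24.6 and 25.3 in stalk, and 19.9 and 19.2 in mesenchyme.

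Pax8 had the smallest difference among the factors between the mean of tip and stalk and the mesenchyme (0.59). Its measured probe set, 1418208_at, read 289 and 267 in tip, 225 and 216 in stalk, and 169 and 149 in mesenchyme. The tissues did not overlap, yet no difference reached 2-fold: 0.75 ± 0.10 for tip against mesenchyme (adjusted p = 0.000396), 0.43 ± 0.10 for stalk against mesenchyme (adjusted p = 0.0207) and 0.32 ± 0.10 for tip against stalk (adjusted p = 0.0429). Its other probe set, 1446561_at, read between 15.1 and 24.3 on the 6 arrays and was not tested.

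**Figure D2:**
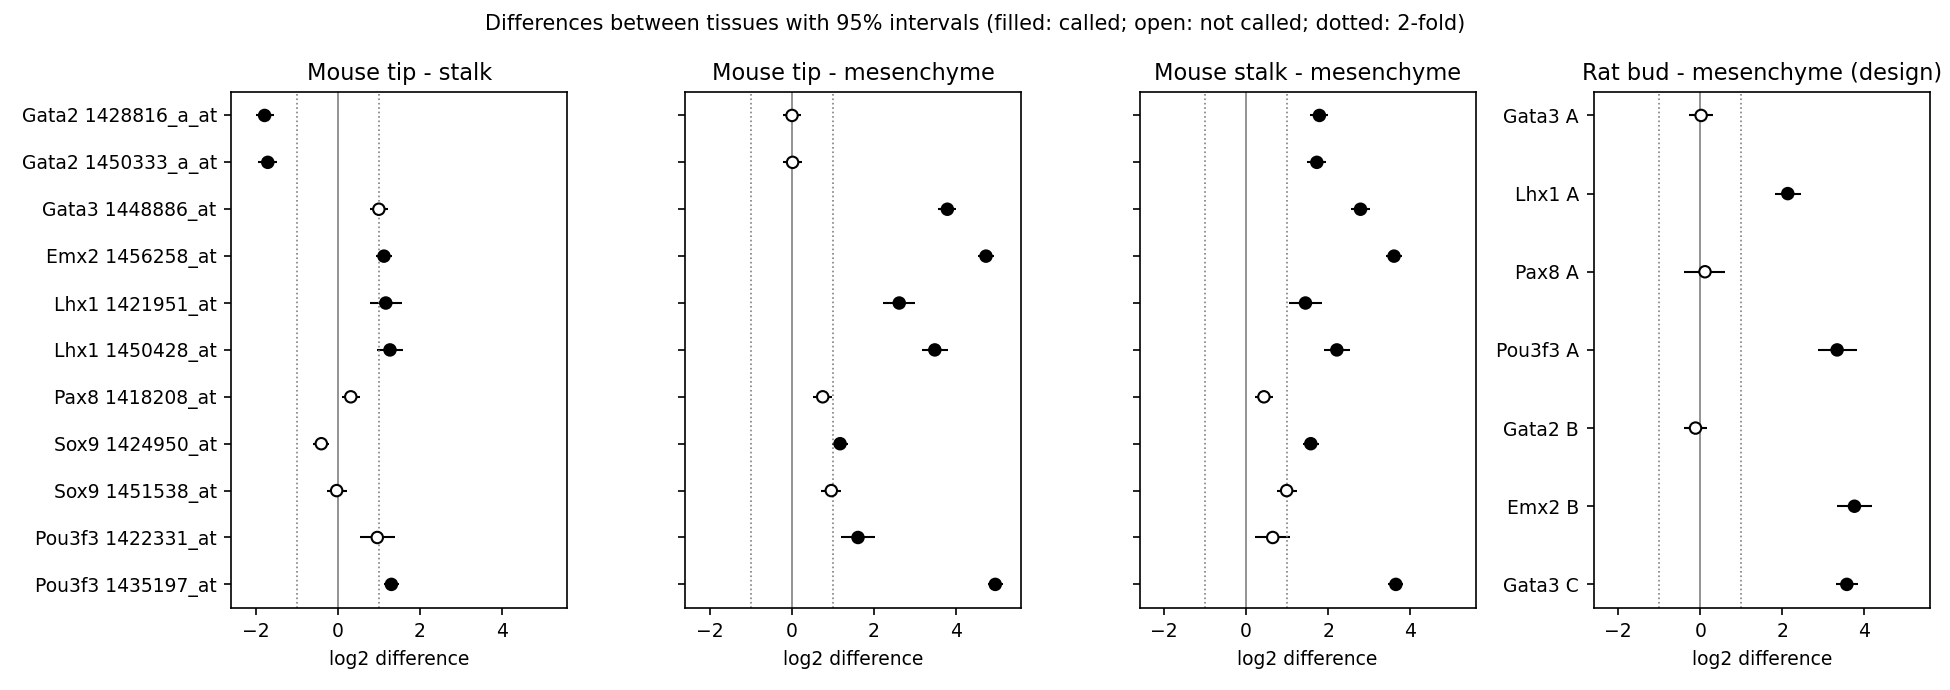
Log2 differences of the 11 tested mouse probe sets (3 panels) and the 7 rat probe sets (last panel) with 95% intervals; filled points were called, and dotted lines mark 2-fold. Gata2 is alone on the stalk side of 2-fold in the first panel, and the Gata3 probe sets of rat designs A (0.02) and C (3.58) stand apart in the last.

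Over the 13 mouse probe sets, 11 were tested. Between tip and stalk, 4 were called higher in tip, those of Emx2 and Lhx1 and 1 of Pou3f3, and 2 lower, both of Gata2. Over all 23919 tested probe sets, 0.953% were called higher in tip and 3.64% lower. Between tip and mesenchyme, 7 were called higher in tip and 0 lower, against 3.9% and 4.26% of all. In the comparison of stalk with mesenchyme, 8 were called higher in stalk and 0 lower, against 2.35% and 0.426%. For the mean of tip and stalk against mesenchyme, 7 were called higher, against 2.88% of all. The 8 called in stalk belong to 6 genes, all but Pax8. The factors are known bud genes and were named with these results in view, so their counts describe them and are not independent evidence.

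**Figure D3:**
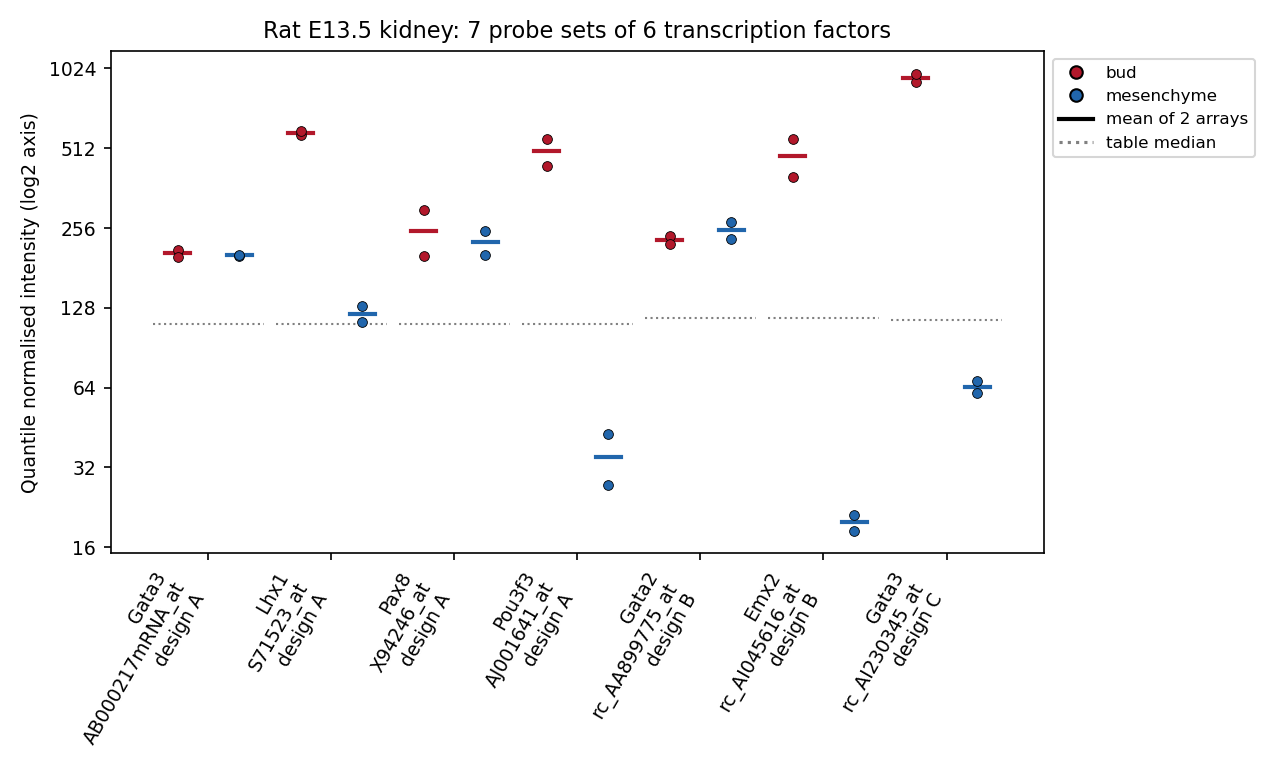
Quantile-normalised intensity (log2 axis) of the 7 rat probe sets in bud and mesenchyme on designs A, B and C; points are arrays, bars the mean of 2 arrays, and the dotted line the median of each design. Pou3f3, Lhx1, Emx2 and the Gata3 probe set of design C separate bud from mesenchyme, while Gata3 on design A, Pax8 and Gata2 do not.

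In the rat, Gata3 gave different answers on different designs. On design C its probe set rc_AI230345_at read 907 and 979 in bud and 61.0 and 67.9 in mesenchyme, a bud level 11.9-fold higher (log2 difference 3.58 ± 0.11, adjusted p = 0.000246). On design A its probe set AB000217mRNA_at read 211 and 200 in bud and 202 and 203 in mesenchyme. There the groups overlapped, with a difference of 0.02 ± 0.13 (adjusted p = 0.946) and a 95% interval from -0.28 to 0.32. Without the second bud labeling the 2 values were 3.52 and 0.06. The labels give the same approximate numbers of pooled buds (1200) and mesenchymes (240) for both designs. The mouse probe set, averaged over tip and stalk, stood 3.29 above mesenchyme. The cause of the disagreement between the 2 rat probe sets was not tested.

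Emx2, Pou3f3 and Lhx1 were higher in rat bud. Emx2 (rc_AI045616_at, design B) read 556 and 397 in bud and 21.2 and 18.5 in mesenchyme, and bud was higher by 3.76 ± 0.18 (adjusted p = 0.000126). On the bud arrays Pou3f3 (AJ001641_at, design A) read 439 and 557, against 42.6 and 27.4 in mesenchyme, and bud lay 3.34 ± 0.20 higher (adjusted p = 0.000171). For Lhx1 (S71523_at, design A) the bud arrays gave 576 and 596 and the mesenchyme arrays 130 and 113, a difference of 2.14 ± 0.13 (adjusted p = 0.000192). Without the second bud labeling the 3 differences were 3.998, 3.17 and 2.11. In the mouse, the mean of tip and stalk exceeded mesenchyme by 4.17 for Emx2, by 4.31 and 1.13 for Pou3f3, and by 2.85 and 2.03 for Lhx1.

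Pax8 and Gata2 did not separate rat bud from mesenchyme. Pax8 (X94246_at, design A) read 299 and 201 in bud and 250 and 203 in mesenchyme, with a difference of 0.12 ± 0.21 (adjusted p = 0.804; interval -0.38 to 0.62). Its sign rested on single arrays: the difference was 0.39 without bud replicate 2, -0.16 without bud replicate 1 and -0.03 without mesenchyme replicate 2. Gata2 (rc_AA899775_at, design B) read 239 and 223 in bud and 271 and 233 in mesenchyme, with a difference of -0.12 ± 0.12 (adjusted p = 0.526; interval -0.40 to 0.17), or -0.07 without the second bud labeling. The rat bud was not divided into tip and stalk. The mouse mean of tip and stalk was 0.87 and 0.89 above mesenchyme on the Gata2 probe sets and 0.59 on that of Pax8, all below 2-fold, and the difference between the species was not tested.

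By design, the called rat probe sets were 2 of 4 on A, 1 of 2 on B and 1 of 1 on C, each of them higher in bud. Over all tested probe sets, 2.75% of 4616 were called higher in bud on A, 3.05% of 4657 on B and 2.22% of 4648 on C.

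The families of the factors have other members in the kidney. Of 23 paralogues listed from the GATA, Emx, LIM homeobox, Pax, Sox and POU families, 13 were tested, each by its brightest mouse probe set. Between tip and stalk 1 was called higher and 3 lower, against 0.953% and 3.64% of all tested probe sets. The median was 0.15 against 0.06 over all. The higher one was Sox8, the partner of Sox9 in branching (1.75, adjusted p = 2.97e-05), which averaged 153 in tip, 34.2 in stalk and 26.4 in mesenchyme. Gata6 (-2.81, adjusted p = 5.77e-07) and Gata5 (-1.77, adjusted p = 4.03e-05) were lower in tip, as Gata2 was. Between stalk and mesenchyme their differences were not called (0.49 for Gata6 and 0.67 for Gata5). Pou3f1, a relative of Pou3f3, stood highest in stalk as Gata2 did, lower in tip than stalk (-1.46, adjusted p = 2.32e-05) and higher in stalk than mesenchyme (1.75, adjusted p = 1.16e-05).

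Among 14 cofactors that bind LIM, GATA or Pax proteins, 12 were tested, and 3 were lower in tip than in stalk with 0 higher (median -0.14). Over all tested probe sets, 3.64% were lower and 0.953% higher. The 3 were Zfpm2, also called FOG2, a partner of GATA proteins (-2.97), the LIM-binding Ldb2 (-1.78) and Ssbp2 (-1.13), which binds Ldb proteins. Ldb1, the widely expressed LIM-binding cofactor that partners Lhx1, averaged 477 in tip, 471 in stalk and 495 in mesenchyme. Between stalk and mesenchyme Zfpm2 differed by -0.09 and Ldb2 by -0.38, neither called. Against mesenchyme, 4 were lower in tip, as were 4.26% of all tested probe sets, Lmo2 (-1.56) being the addition to the same 3. Ldb2 was also lower in rat bud than mesenchyme, on design B (-1.17, adjusted p = 0.00255), and was -1.23 without the second bud labeling.

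**Figure D4:**
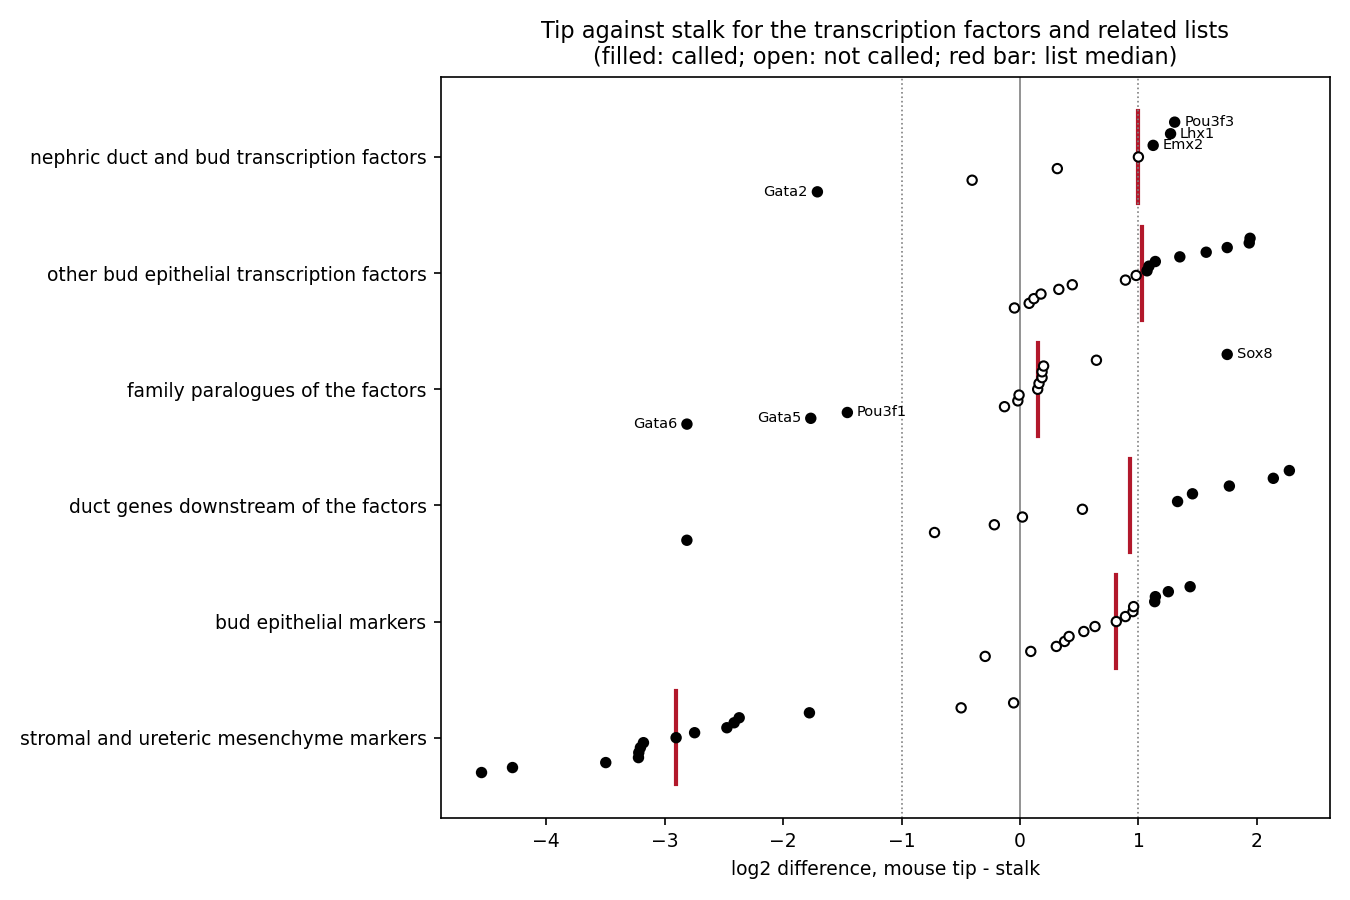
Log2 difference of mouse tip minus stalk for each tested gene of 6 lists, with the transcription factors in the top row; each point is a gene's brightest probe set, filled where called, dotted lines mark 2-fold, and red bars are list medians. Gata2 is the called factor on the stalk side, where 13 of 15 stromal and ureteric mesenchyme markers also lie.

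Other transcription factors of the bud epithelium were read beside the 7. Of 16 tested, 8 were higher in tip than stalk and 0 lower, against 0.953% and 3.64% of all tested probe sets. Their median was 1.03. The largest differences were those of the Ets factors Etv4 and Etv5, which respond to Ret (both 1.94), Sox8 (1.75) and Sim1 (1.57). Compared with mesenchyme 14 were higher in tip and 9 in stalk, against 3.9% and 2.35% of all tested probe sets. The medians were 2.20 and 1.27. Tfcp2l1, a Grainyhead-family factor, stood high in both bud tissues, with 839 in tip, 794 in stalk and 22.2 in mesenchyme (tip minus stalk 0.08, adjusted p = 0.753).

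Of 10 tested genes placed downstream of Gata3, Lhx1, Pax8, Emx2 or Sox9, 5 were higher in tip than stalk and 1 lower. Over all tested probe sets, 0.953% were higher and 3.64% lower. The list holds cartilage collagen genes beside duct genes. Ret averaged 1531 in tip, 304 in stalk and 23.6 in mesenchyme (tip minus stalk 2.27, adjusted p = 1.07e-06), the same order as Gata3. Wnt11, a tip ligand in the Ret pathway, was higher in tip than stalk by 2.14 and Gfra1, the Ret co-receptor, by 1.77. Cdh16, the kidney cadherin, stood at 1830 in tip and 2131 in stalk against 59.8 in mesenchyme. Col9a1, a cartilage collagen gene regulated by Sox9 in that tissue, was lower in tip than in stalk (-2.81) and than in mesenchyme (-3.48), while Sox9 itself was higher in tip than in mesenchyme. In rat bud on design A, 4 of 6 tested were higher, led by Ret (3.52) and Spry1 (2.06), and 1 was lower, the Sox9-regulated collagen gene Col2a1 (-2.81). Over all tested probe sets of design A, 2.75% were called higher and 3.03% lower. Without the second bud labeling the 3 values were 3.25, 1.88 and -2.50.

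Since Lhx1, Pax8 and Pou3f3 also belong to the early nephron, other early nephron genes were read beside them. Of 14 tested, 1 was higher in tip than stalk, Lgr5 (1.11), and 1 lower, Cdh6 (-1.09), against 0.953% and 3.64% of all tested probe sets. The list median was 0.14. Without tip replicate 2 Lgr5 and Cdh6 were 0.99 and -0.88, and without stalk replicate 1 Lgr5 was 0.98, all below 2-fold. The list summed to 4795 to 5016 in tip, 4277 to 4298 in stalk and 2784 to 2827 in mesenchyme. In the comparison with mesenchyme, 4 were higher in tip, led by the Notch ligand Jag1 (1.81) and Irx3 (1.76), and Cdh6 was lower (-1.10). Of all tested probe sets, 3.9% were higher and 4.26% lower there. Whether early nephron tissue contributed to the levels of Lhx1, Pax8 and Pou3f3 was not tested.

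Nearest patterns were sought for each factor among 12353 genes by the distance between the 6 log2 values of the mouse arrays, each centred on its own mean, so that 0 means identical profiles. The distances include the labelling noise of 2 arrays per tissue. The values are not scaled, so shallow profiles lie close to other shallow ones, and distances are not compared between factors. Emx2 and Pou3f3 were near each other, at 0.26, and shared their nearest gene, the adaptor protein subunit Ap1s3, at 0.19 and 0.16, as well as Aldh1a3, an enzyme of retinoic acid synthesis, at 0.30 and 0.37. For Gata3 the nearest were Grhl2 (0.21), the desmosomal cadherin Dsg2 (0.24) and Tfap2a (0.27), and for Lhx1 they were Tfap2b (0.24), Cobll1 (0.29) and Lratd2 (0.30). Gata2 was nearest to the collagen gene Col14a1 (0.34), Fut9 (0.45) and the enkephalin precursor Penk (0.47), all highest in stalk. Sox9 lay next to Anxa1 (0.14), the keratin Krt19 (0.21) and Smoc2 (0.28). Pax8, with its shallow gradient, was near Osbpl3 (0.09), Lcor (0.11) and Ccdc120 (0.11).

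Transcripts from the opposite strand of 2 of the factors had probe sets of their own, which were looked up after the values of the factors were seen. Lhx1os (1439232_at) read 253 and 275 in tip, 97.8 and 79.5 in stalk, and 18.2 and 39.5 in mesenchyme, and so followed the order of Lhx1. It was called in tip against stalk (1.43, adjusted p = 0.0014), tip against mesenchyme (2.68, adjusted p = 1.83e-05) and stalk against mesenchyme (1.26, adjusted p = 0.00517). The last was 1.13 without stalk replicate 1 and 0.91 without mesenchyme replicate 1, neither called. Emx2os (1456559_at) read 83.2 and 92.3 in tip, 48.3 and 56.4 in stalk, and 32.9 and 27.1 in mesenchyme. Its tissues stood in the order of Emx2, with smaller differences of which only tip against mesenchyme was called (1.18, adjusted p = 0.000231). Tip against stalk was 0.60 (adjusted p = 0.0127) and stalk against mesenchyme 0.57 (adjusted p = 0.0305).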

How the data were processed

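Affymetrix arrays measured pooled RNA of mouse tip, stalk and mesenchyme and of rat bud and mesenchyme, with 2 labelings per tissue and design. The deposited values are intensities per probe set on a linear scale, with array medians of 47.4 to 51.4 on the mouse array and 108 to 120 on the rat designs, and the summary and scaling method is not given in the sources used here. Gene symbols came from the annotation of the platforms, and control probe sets were left out (64 mouse and 59 per rat design).

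Intensities were quantile-normalised within a design, transformed as log2(intensity + 16), filtered at the design's median (49.3, 111, 118 and 115 for mouse, A, B and C) and fitted with limma 3.58.1 in R 4.3.3 (intensity trend), 1 fit for the 6 mouse arrays and 1 per rat design. All member probe sets are reported. From other lists, each gene's brightest probe set was used, and the called genes with the largest differences were named, at most 4 per direction and comparison. The 3 nearest patterns of each factor were taken by Euclidean distance. Members, lists and tests were chosen with earlier results of these data known. The fit was tested on simulated data: of 200 changed probe sets, those changed by 1.5 on the log2 scale were called in 95% of cases for tip against stalk and in 77%, 87% and 91% for designs A, B and C. The alternatives are those of the closing section. Precision is limited by the number of arrays.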

Additional observations from a re-analysis of the deposited data

How the results depend on the processing

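No difference of the factors' probe sets that was called changed direction under any alternative run, and the counts of the factors' called probe sets stayed within 1.5 times their main values (values as deposited, a common trimmed mean, pseudocounts of 1 and 64, no filter, no intensity trend, the replicate block, a test against 1.5-fold, and each array left out). With a pseudocount of 64, which shrinks differences by construction, the calls over all probe sets dropped to 671 for tip against stalk, 1266 for tip against mesenchyme, 392 for stalk against mesenchyme, 658 for the bud mean against mesenchyme and 172 for rat design B, from 1098, 1953, 663, 1112 and 269. The test against 1.5-fold left 160, 164 and 127 calls on rat designs A, B and C, from 267, 269 and 215. Leaving out each array in turn gave 247 to 468 calls on design A (468 without bud replicate 1) and 79 to 352 on design C (352 without bud replicate 1, 79 and 85 without mesenchyme replicates 1 and 2); the cause was not tested. Single probe sets changed calls near 2-fold. Gata3 for tip against stalk was called with a pseudocount of 1 (1.04) and with limma's test against 1.5-fold (adjusted p = 0.0313). That test lost Lhx1 1421951_at for tip against stalk (adjusted p = 0.0965). Averaging all 3 Sox9 probe sets, of which 1433889_at lay under the filter, gave 0.78 and 0.92 for tip and stalk against mesenchyme, not called. Sox9 1451538_at for stalk against mesenchyme was called on values as deposited (1.05), with a common trimmed mean (1.02) and with a pseudocount of 1 (1.09). For tip against mesenchyme it was called with a pseudocount of 1 (1.05). The test against 1.5-fold called it for tip (adjusted p = 0.0437) and not for stalk (adjusted p = 0.0858). Pou3f3 1422331_at for tip against mesenchyme was 0.97 with a pseudocount of 64, also not called. Of 111 called differences of the related lists and opposite-strand transcripts, 90 kept their call under every alternative, 19 lost it with a pseudocount of 64, 11 lost it without some array, and 0 changed direction. The cell type marker lists are not part of this count.

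With the replicate number as a block, the called probe sets of the factors numbered 6, 7, 8 and 7 in the mouse comparisons and 2, 1 and 1 on the rat designs, as without it, and the block changed no call of a factor. Over all probe sets the block gave 1098 calls for tip against stalk and 306 for design A. Same-numbered arrays deviated together (correlations of 0.423 to 0.566 in the mouse and 0.222 to 0.309 in the rat). No pairing of the arrays is stated, and what same-numbered arrays share beyond the number was not tested.

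With 2 labelings of 1 pool per tissue, no spread between animals is measured. Pax8 1446561_at and Sox9 1433889_at lay under the filter, and their low values set no limit on the levels of Pax8 and Sox9.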
